A study of Mus musculus with 287 samples.

Results

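The smallest SN clones, those labelled as holding 2 cells, were compared with SN clones labelled as holding 4, 5 or 6 cells. SN is 1 of 2 clone types in the labels, which do not spell it out. Members were the cells of type SN with an exon count above 0 in at least 1000 genes, in clones that kept at least 2 such cells. This gave 18 cells in 9 size-2 clones and 71 cells in 19 larger clones, together 89 cells (31.0% of those in the series) and 28 of its 68 clones. Clones of size 3 were left out. The series holds 20 cells in 10 clones labelled size 2 and 88 cells in 22 clones labelled size 4 to 6. For some larger clones it holds fewer cells than the size label. The cell filter kept 19 of the 20 and 74 of the 88, and 1 and 3 clones were then left with a single cell and dropped. Each size-2 clone compared kept 2 cells, but clones 6 and 15, labelled size 5, kept 3 each. Clone 50, labelled size 4, kept 2. Measures of the larger clones cover the kept cells alone.

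All groups shared 1 source and 1 treatment. The cells came from mouse cerebral organoids grown from embryonic stem cells of genotype MADM-11GT/TG;Emx1-CreER+/-. The tamoxifen-inducible Cre is expressed from the Emx1 locus, so clones start in cells that used that locus. Cultures received 60 nM 4-hydroxytamoxifen on day 13 to start recombination and were taken apart on day 20. Single fluorescent cells were then picked with a glass pipette and read with Smart-seq3, a full-length single-cell RNA method. No organoid or culture is named for a clone. Clones can therefore share an organoid, and p-values measure the spread between clones and may be too small.

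In the developing cortex, radial glia are the stem cells that line the ventricle. They divide to renew themselves, to give rise to neurons directly, or to give rise to intermediate progenitors, which go on to make neurons. MADM (mosaic analysis with double markers) exchanges chromosome arms in a dividing cell, so that its daughters can carry a green marker and a red marker and found sub-lineages of a clone that can be told apart. The size of such a clone counts the descendants found of the labelled division.

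Depth differed between the groups and within pairs. Exon counts per cell had a median of 2956170 in size-2 clones (33984 to 8873411) and 1088241 in larger clones (10405 to 10406992). In 7 of the 9 pairs the deeper cell held over 82% of the pair's counts, up to 99.5% in clone 56. The cells of clones 38 and 43 were about even, with 53.4% and 52.0% in the deeper cell. In the 4 pairs of 1 green and 1 red cell the deeper cell was the green one in 4 of 4. Plate 1 held 4 size-2 and 8 larger clones, plate 2 held 2 and 5, and plate 3 held 3 and 6, and plate entered each comparison of size as a term.

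The clones of both sizes carried the genes of young cortical excitatory neurons and of radial glia. Stmn2, a microtubule regulator of growing neurons, and the bHLH factor Neurod6 of the cortical excitatory lineage were counted in 9 of 9 size-2 and 19 of 19 larger clones. So was Fabp7, the fatty acid binding protein of radial glia. Emx1, the locus that drives the Cre, was low on the day of collection. It was counted in 7 of 9 size-2 clones (median 10.6 CPM, 0 to 47.3) and in 13 of 19 larger clones (median 0.877 CPM, 0 to 73.3), where CPM is a count scaled to a library of 1e+06 exon counts. Its fitted log2 difference, size 2 minus size 4 to 6, was -0.52 ± 1.43 (SE), and the sign turned with limma-voom, with equal cell weight, with 2 cells per clone, with size 4 alone, without plate 1 and without clone 40. Of the 5 pluripotency genes on the list none passed the filter on low counts, and 3 of them (Pou5f1, Dppa5a and Utf1) were at 0 in every clone compared.

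The first comparison asks whether whole clones of 2 cells differ in expression from larger ones. The exon counts of each clone's cells were added up and tested with edgeR. Of 10730 genes tested 0 passed an adjusted p of 0.05 (0% called), and the smallest adjusted p by edgeR was 0.240. At an unadjusted p under 0.05, 190 genes lay higher in size 2 (1.77%) and 96 lower (0.895%), and the median log2 difference over all genes was 0.05. Among all genes tested 5663 lay above 0 (52.8%) and 5067 below, the background for the list counts that follow. DESeq2 called 11 genes and limma-voom called 3 in the same sums. The sums of size-2 clones are mostly 1 cell each, as the depths above show, and a gene's sum is weighted by that cell. In larger clones too the deepest cell held a median of 60.7% of the clone's counts (42.0% to 89.2%).

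The neuron list held genes of the neuronal cytoskeleton, RNA-binding proteins and excitatory transcription factors, and lay near the background. Of the 26 listed and tested genes 15 were above 0, beside 52.8% of all genes tested. Their median log2 difference was 0.16 beside 0.05 over all genes, and 0 reached an unadjusted p under 0.05 in either direction. Neurod2, a bHLH transcription factor that drives excitatory differentiation, ranged over clones from 62.6 to 336 CPM in size 2 (median 174.2) and from 17.3 to 297.7 CPM in larger clones (median 110.8). Those ranges overlapped over most of their length, and the log2 difference was 0.77 ± 0.39 (SE; edgeR adjusted p = 1.00). Elavl3, an RNA-binding protein of young neurons, differed by 0.42 ± 0.35 and Nefl, the light neurofilament, by 0.96 ± 0.80. Stmn2 was nearly level, at a median of 2890 CPM against 2855 CPM and a log2 difference of -0.05 ± 0.27. Neurod6 was level as well (-0.18 ± 0.49, medians 326 and 342 CPM). The median of the neuron list was -0.10 without plate 3 and -0.04 without clone 43.

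Synapse and axon guidance genes lay a little further above 0. Of 24 synapse genes tested 16 lay above 0 (median 0.29), and 1, Gria2, had an unadjusted p under 0.05, beside 1.77% of all genes in that direction. Gria2 is the AMPA receptor subunit that limits calcium entry. It ranged from 95.8 to 893 CPM in size 2 (median 509) and from 48.1 to 615 CPM in larger clones (median 309), and differed by 0.90 ± 0.38 (edgeR adjusted p = 1.00). Only clone 13 lay low among the size-2 clones, at 95.8 CPM, and the next lowest stood at 340 CPM. The presynaptic adhesion gene Nrxn3 differed by 1.55 ± 0.86, and its postsynaptic partner Nlgn1, at medians of 84.6 and 34.1 CPM, by 1.16 ± 0.68. The synapse median stayed above 0 in the 17 alternatives that were fitted over clone sums (0.17 to 0.75). Of 20 axon guidance genes 14 lay above 0 (median 0.31). The 3 of smallest p were the Slit receptor Robo2 (1.00 ± 0.69), the semaphorin co-receptor Plxna4 (0.94 ± 0.72) and the ephrin receptor Epha5 (0.50 ± 0.40), and none of the 20 had an unadjusted p under 0.05. The fitted difference was larger for the cadherin Cdh8 (1.67 ± 1.59), which was counted in 5 of 9 size-2 and 9 of 19 larger clones. The axon guidance median ran from -0.01 without plate 3, where 9 of 20 genes lay above 0, to 0.66 over the 17 alternatives.

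Radial glia genes lay lower in the sums of size-2 clones. Of 24 genes tested 18 lay below 0, beside 5067 of all 10730 genes. The median was -0.55, and 1 had an unadjusted p under 0.05, beside 0.895% of all genes in that direction. That gene was Aldoc, a glycolytic aldolase of radial glia and astrocytes. It ranged from 0 to 55.7 CPM in size 2 (median 6.67) and from 0.560 to 988 CPM in larger clones (median 95.9), a log2 difference of -2.59 ± 0.95 (edgeR adjusted p = 1.00, and 0.0328 without the filter on low counts). All 9 size-2 clones lay under the median of the larger ones, and the lowest of them was at 0. Hopx, a marker of outer and late radial glia, was counted in 5 of 9 size-2 clones and 15 of 19 larger ones (medians 0.121 and 15.2 CPM, log2 -2.44 ± 1.22). Sox3, a SoxB1 factor of neural progenitors, was counted in 4 of 9 and 14 of 19 (medians 0 and 1.25 CPM), so its fitted value of -2.99 ± 1.53 rests on few counts. The abundant members differed less: Fabp7 had medians of 856 and 1783 CPM (-0.68 ± 0.61), the intermediate filament Vim 231.6 and 495 CPM (-0.72 ± 0.48), and Sox9, a factor of the switch to glia, 60.5 and 120.7 CPM (-1.03 ± 0.57). Pax6, the dorsal progenitor factor, had the higher median in size 2 (17.1 and 11.3 CPM) but the lower mean (22.2 and 34.3 CPM). Its fitted log2 difference was -0.000314 ± 0.486. The filament gene Nes (-0.05 ± 0.90) and the glutamate transporter Slc1a3 (-0.08 ± 1.09) also lay near 0. Of the 24 genes 6 lay above 0, among them Hes1 (0.37 ± 1.21), counted in 3 of 9 size-2 and 11 of 19 larger clones.

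**Figure D1:**
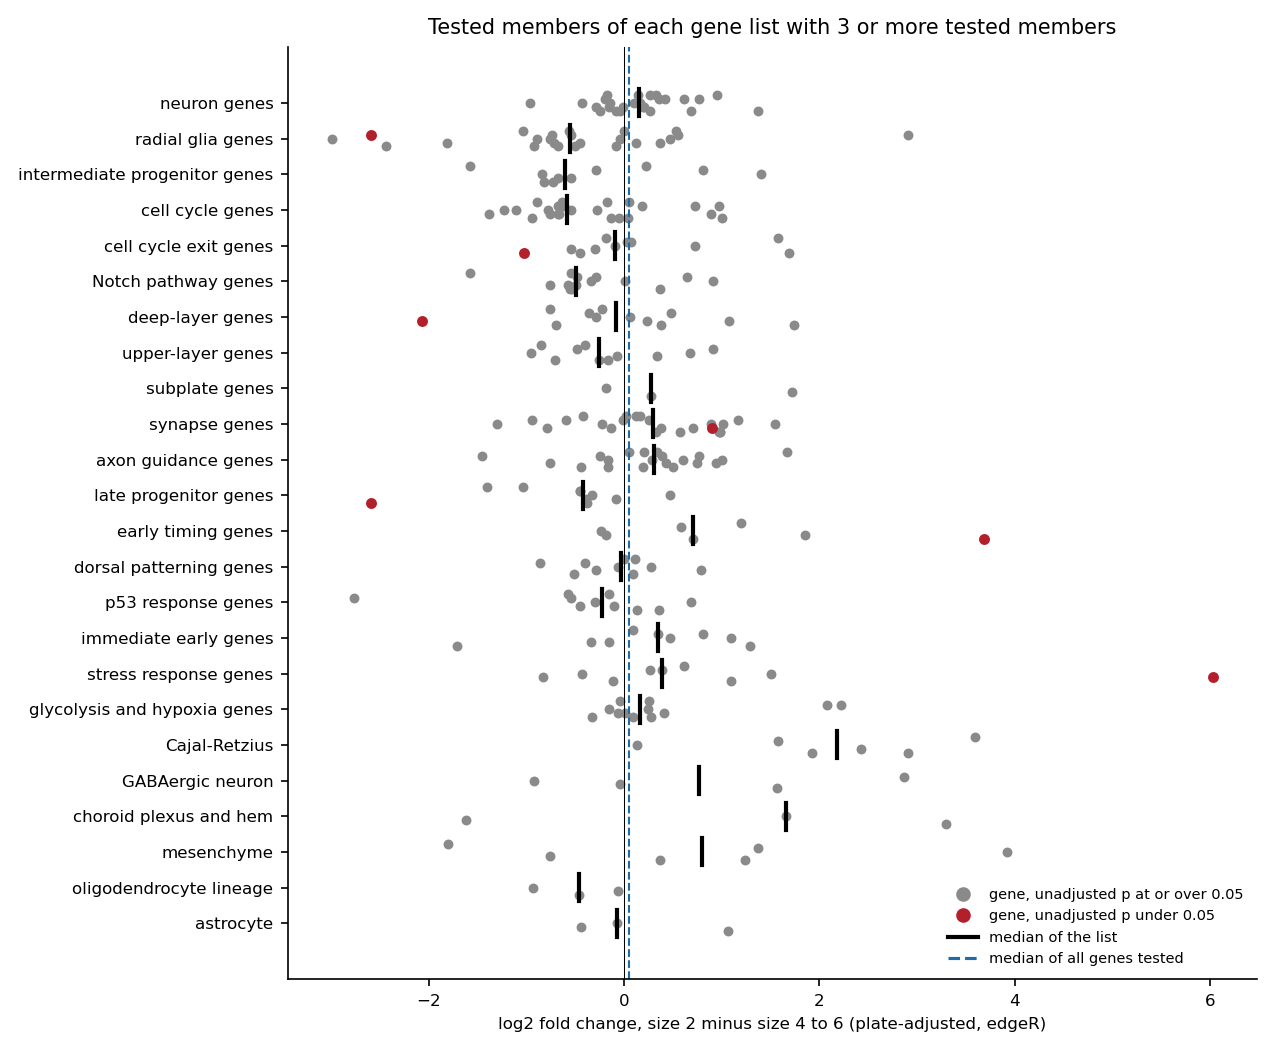
Log2 fold change of each tested gene between size-2 clones (n = 9) and clones of size 4 to 6 (n = 19), by gene list, with each list's median as a black bar and the median over all 10730 genes as a dashed line. Most points lie within 1 of 0, radial glia, intermediate progenitor, cell cycle and late progenitor medians lie left of the dashed line, and none of the genes passed the adjusted threshold.

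The late progenitor list, genes that mark older radial glia and those turning to gliogenesis, shares 5 of its 10 genes with the radial glia list and is no separate evidence. Of its 10 genes 9 lay below 0 (median -0.42), among them the nuclear factors Nfia (-0.39 ± 0.45), Nfib (-0.33 ± 0.31) and Nfix (-0.45 ± 0.46) and the lipid carrier Apoe (-1.40 ± 1.08). Its median lay below 0 in the 17 alternatives (-0.98 to -0.03). The early timing list, genes of young progenitors, had 5 of 7 tested genes above 0 (median 0.71). Lin28b, an RNA-binding protein that holds back let-7, was counted in 6 of 9 size-2 clones (median 14.2 CPM, up to 162.4 in clone 10) and in 7 of 19 larger ones (median 0, up to 55.7 CPM). Its fitted log2 difference was 3.69 ± 1.71 (unadjusted p = 0.0377; edgeR adjusted p = 1.00), a size that rests on clones at 0.

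Cell cycle and Notch genes also lay lower in the sums of size 2. Of 24 cell cycle genes 17 lay below 0 (median -0.58) with 0 at an unadjusted p under 0.05. Hmgb2, a chromatin protein of dividing cells, had medians of 50.6 and 233.6 CPM and differed by -0.67 ± 0.48, the replication clamp Pcna had medians of 50.1 and 106.4 CPM (-0.78 ± 0.56), and Top2a, the mitotic topoisomerase, 31.2 and 100.9 CPM (-0.68 ± 0.67). The cell cycle median was 0.03 without plate 3. Of 14 Notch genes 10 lay below 0 (median -0.49). The Notch list shares Hes1 and Hes5 with the radial glia list and Dll1, Dll3 and Mfng with the intermediate progenitor list. It is therefore not fully separate evidence. The Notch target Hes5, which holds progenitors undifferentiated, had medians of 24.7 and 13.6 CPM but means of 22.0 and 49.5 CPM (log2 -0.76 ± 1.12). The highest larger clones stood at 338 and 269.1 CPM, and the highest size-2 clone at 47.7 CPM. Ccnd2, a D-type cyclin of radial glia, ranged from 99.8 to 1580 CPM in size 2 (median 460) and from 99.9 to 2950 in larger clones (median 707), a log2 difference of -1.02 ± 0.49 (unadjusted p = 0.0457, edgeR adjusted p = 1.00).

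Laminar identity gave no common direction. Deep-layer genes split 6 above and 6 below 0 (median -0.08). In them Tle4, a corepressor of corticothalamic neurons, lay at 1.07 ± 0.69 and Crym, a thyroid hormone binding protein of deep layers, at 1.74 ± 1.25. Tshz2, a zinc finger gene of deep projection neurons, lay at -2.07 ± 1.02 (medians 16.0 and 38.3 CPM, unadjusted p = 0.0494). Of 11 upper-layer genes 3 lay above 0 (median -0.26), of which Lmo4 was the most abundant named gene (medians 223.4 and 178.8 CPM, 0.34 ± 0.35). The subplate list had 3 tested genes of 8, with Nr4a2 at a median of 104.8 CPM in larger clones and from 37.8 to 534 CPM in size 2 (0.28 ± 0.71). Dorsal patterning genes split 4 and 6 (median -0.03). Nr2f2, an areal patterning nuclear receptor, had medians of 320.2 and 187.4 CPM (0.78 ± 0.41), and Lhx2, a LIM homeodomain factor of the cortical primordium, lay at -0.40 ± 0.51.

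Stress and metabolic lists did not stand far from the background either. Of 9 tested stress genes 6 lay above 0 (median 0.39), and Hspa1b, the inducible heat shock protein, was counted in 5 of 9 size-2 clones and 7 of 19 larger ones (unadjusted p = 0.0134, edgeR adjusted p = 1.00). Of 12 glycolysis and hypoxia genes 8 lay above 0 (median 0.17), of 9 immediate early genes 6 (median 0.35), and of 10 p53 response genes 3 (median -0.23).

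Markers of other cell types were counted in both groups, at levels that varied widely over clones. On the Cajal-Retzius list 6 of the 6 tested genes (of 7 listed) lay above 0, with a median of 2.18, and 0 had an unadjusted p under 0.05. The median was -0.03 without clone 53 and at least 1.76 without any other single clone. Reln, the secreted glycoprotein of those early cells, was counted in 8 of 9 size-2 clones (median 131.6 CPM, highest 1400) and 16 of 19 larger ones (median 53.8, highest 138.7 CPM), a log2 difference of 1.92 ± 0.97. The list summed to a median of 203.2 CPM in size 2 (0 to 1946) and 125.3 CPM in larger clones (10.4 to 464). The median was also near 0 without plate 3, which holds clone 53 (0.18), and with limma-voom (0.11). Calb2, also of Cajal-Retzius cells, was nearly level at 0.13 ± 1.12. The GABAergic list summed to medians of 64.8 and 22.1 CPM, choroid plexus and hem to 42.2 and 8.85 CPM, mesenchyme to 85.4 and 21.7 CPM, astrocyte to 169.5 and 138.6 CPM (up to 1258 CPM in a larger clone), the oligodendrocyte lineage to 44.8 and 69.4 CPM, and microglia with endothelium to 10.0 and 9.61 CPM, with overlapping ranges for each. The part of these markers in the differences above was not tested.

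The genes of smallest p over the whole table were mostly genes with few counts. Above 0 they were Gm42885, a predicted gene counted in 7 of 9 size-2 and 3 of 19 larger clones (medians 17.9 and 0 CPM), Lactb2, a mitochondrial endoribonuclease gene counted in 6 and 4 clones, and Tmem74, a membrane protein of autophagy counted in 9 and 6 clones (medians 4.55 and 0 CPM). Their edgeR adjusted p were 0.240, 0.240 and 0.349, and their fitted folds depend on the prior count given to clones at 0. DESeq2 called Gm42885 (adjusted p = 0.00144) and Tmem74 (adjusted p = 0.0431) and not Lactb2. Below 0 they were Cdk19, a kinase of the Mediator complex, and the thinly counted Tmem18 and Ccdc18. Cdk19 was counted in 9 of 9 size-2 clones (median 5.85 CPM, 0.536 to 66.8) and 18 of 19 larger ones (median 58.7, up to 376 CPM), a log2 difference of -2.51 ± 0.74 (edgeR adjusted p = 1.00, DESeq2 adjusted p = 0.0204). Tmem18 had 1 count over all size-2 clones and 1875 over the larger ones, where 9 of 19 clones held them (DESeq2 adjusted p = 0.00215). Ccdc18 had 10 counts in 1 size-2 clone, against 1882 in 10 of 19 larger ones, and DESeq2 did not call it. Without the filter on low counts Gm42885, Lactb2, Tmem18 and Ccdc18 passed in edgeR too (adjusted p = 0.0194, 0.0319, 0.0319 and 0.0348).

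Intron counts, a second readout that is richer in unspliced RNA, were tested in the same way. Of 8783 genes 0 passed (0%), with 4.54% higher and 2.69% lower at an unadjusted p under 0.05. On introns 16 of 20 tested neuron genes lay above 0 (median 0.50) and 8 of 9 radial glia genes lay below (median -0.89), beside a median of 0.06 over all genes. Among all 8783 genes 4558 lay above 0 there. Synapse genes had 17 of 21 above 0 (median 0.54). Intron and exon counts come from the same cells and libraries. Of the genes with an exon p under 0.05 that were tested on introns, 73.2% had the same sign there, and 13 (8.28%) also had an unadjusted p under 0.05.

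A second comparison gave each cell the same weight. A cell's score is the mean of log2(CPM+1) over a list, scores were averaged over the cells of a clone, and clone means were compared by an exact permutation test within plates (two-sided, 873180 arrangements, adjusted over 11 measures). The neuron score averaged 6.94 ± 0.742 (SD, n = 9) in size 2 and 6.03 ± 1.03 (SD, n = 19) in larger clones. The plate-adjusted difference was 0.89 (exact permutation p = 0.0307, adjusted p = 0.0563), with 0.24, 2.15 and 0.87 on plates 1, 2 and 3. It did not pass, and the values of the groups overlapped. It did pass without clone 1, 11, 13, 50 or 55 (exact permutation, adjusted p = 0.0302 without clone 13 and 0.0301 to 0.0471 over the 5), and did not pass without any one of the other 23. With a pseudocount of 10 the neuron difference was 0.55 (exact permutation, adjusted p = 0.112). With the log2 of the list's summed CPM in a cell it was 0.22 (exact permutation, adjusted p = 0.388). Detected genes were also higher in size 2 (below), and their part in this and the other scores was not tested. The radial glia score, at 3.81 ± 1.04 and 3.55 ± 1.02, differed by 0.28 (exact permutation p = 0.496, adjusted p = 0.496). It was 0.99 higher in size 2 on plate 1, -0.08 on plate 2 and -0.40 on plate 3. So the sign of the radial glia list differed between the clone sums and this score. The same held for the cell cycle list (score difference 0.53, adjusted p = 0.294). In the clone sums the radial glia median lay below 0 in the 17 alternatives (-1.52 to -0.05), among them the fit with equal cell weight. Cell weight was not the only change, since the score also averages log2(CPM+1) gene by gene. With the log2 of the list's summed CPM instead, still averaged over cells, both differences lay below 0 (-0.42 and -0.63). The cause of the change in sign was not tested. Neuron minus radial glia score differed by 0.61 (adjusted p = 0.378), and by -0.75 on plate 1 against 2.23 on plate 2 and 1.27 on plate 3.

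The intermediate progenitor score was the only cell type score past the threshold. It averaged 2.14 ± 0.856 (SD, n = 9) in size 2 and 1.46 ± 0.578 (SD, n = 19) in larger clones, a difference of 0.68 (exact permutation p = 0.0174, adjusted p = 0.0478), with differences of 0.28, 1.80 and 0.43 on plates 1, 2 and 3. Clone 38 was highest at 4.16, and without it the difference was 0.40 and the adjusted p 0.174. In all, 19 of the 28 clones ended the call when left out. By exact permutation it was also lost with a pseudocount of 10 (adjusted p = 0.102) and with the log2 of summed CPM (adjusted p = 0.257). The same held with each cell thinned to 100000 counts (adjusted p = 0.144), while at 30000 counts it passed (adjusted p = 0.0486). It was lost as well with at least 2000 genes per cell, with 2 cells per clone and with size 4 alone. In the clone sums the same list went the other way, with 7 of 10 tested genes below 0 and a median of -0.61, and it stood at 0.65 with limma-voom. Neurod1, a transcription factor of new neurons, and Btg2, an antiproliferative gene of neurogenic divisions, were with Dll3 the 3 members of smallest p. Neurod1 had medians of 66.5 and 22.5 CPM (log2 1.40 ± 0.91), and Btg2 104.7 and 20.4 CPM (0.81 ± 0.91). Dll3, a Notch ligand family member that acts within the cell, had medians of 0.288 and 1.66 CPM (-1.57 ± 1.42).

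The clearest difference was in how many genes a cell showed. Detected genes per cell, those with an exon count above 0, averaged 8739 ± 2043 (SD, n = 9; 5090.5 to 12023, median 8621) in size-2 clones. In larger clones they averaged 5549 ± 1639 (SD, n = 19; 1850 to 8186.5, median 5465). Of the size-2 clones 6 lay above the highest larger clone. The plate-adjusted difference was 3211 genes (exact permutation p = 0.000206, adjusted p = 0.00227), and it was 1599, 6581 and 2952 on plates 1, 2 and 3. With each cell thinned to 100000 exon counts, which dropped 1 size-2 clone and 1 larger clone, the averages were 5860 ± 1124 (SD, n = 8) and 4196 ± 1020 (SD, n = 18). The difference of 1662 genes still passed (exact permutation p = 0.00150, adjusted p = 0.00826), and both calls held without any single clone. With only the first 2 kept cells of each clone the thinned difference was 1325 genes and did not pass (adjusted p = 0.134). The rule itself uses detected genes as a filter, since cells under 1000 genes were dropped, 1 of 20 in size 2 and 14 of 88 in larger clones.

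**Figure D2:**
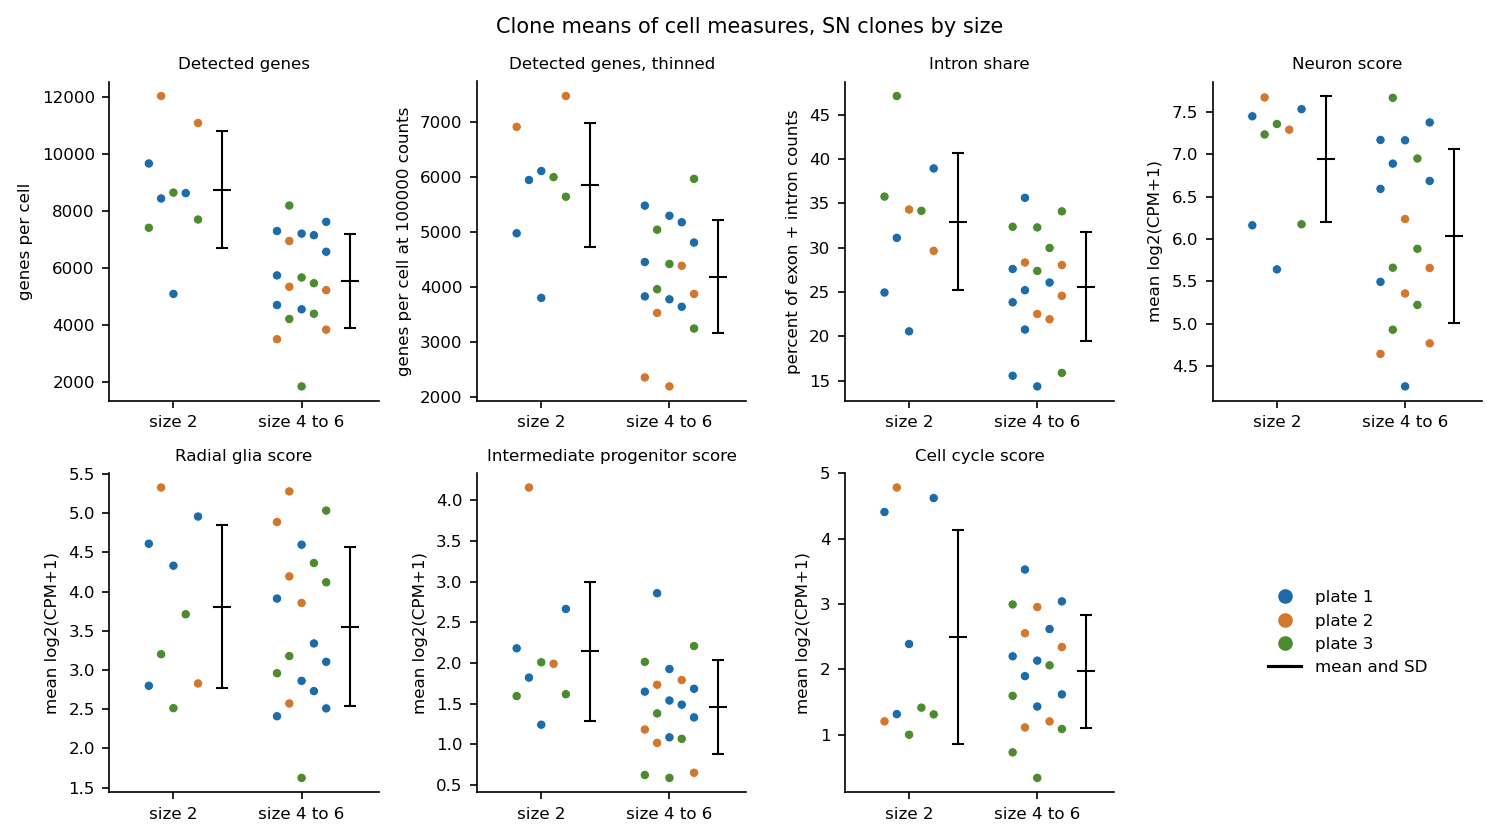
Means over the cells of each clone for 7 measures, size-2 clones (n = 9; 8 in the thinned panel) beside clones of size 4 to 6 (n = 19; 18 in the thinned panel), coloured by plate, with group mean and SD in black. Detected genes and intron share lie higher in size 2, while the radial glia and cell cycle scores overlap over most of their range.

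Intron share, the part of a cell's exon and intron counts that fell in introns, was higher in size 2 as well. It averaged 32.9% ± 7.73 (SD, n = 9) against 25.6% ± 6.12 (SD, n = 19), a difference of 7.30 percentage points (exact permutation p = 0.00687, adjusted p = 0.0252). The differences on plates 1, 2 and 3 were 5.26, 6.89 and 10.3 points. The call was lost without clone 20 (adjusted p = 0.0546), clone 38 (adjusted p = 0.0663) or clone 53 (adjusted p = 0.0593). It was also lost with the first 2 kept cells of each clone (adjusted p = 0.150). Depth moved in the same direction (log10 of the exon total 6.26 ± 0.474 against 5.94 ± 0.405, adjusted p = 0.0563), and its part in the intron share was not tested. The depth difference passed without clone 1, 10, 11, 50, 55 or 56 (exact permutation, adjusted p = 0.0172 to 0.0494). The mitochondrial share (6.54% against 7.85%) and the share of a single gene ID without a symbol, ENSMUSG00000119584 (16.1% against 19.7%), did not pass (adjusted p = 0.294 for each).

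The pairs differed widely in how alike their cells were in neuron genes. In clones 13, 20 and 53 the neuron score of 1 cell lay 3.23, 3.49 and 3.20 above the other as a mean over the 26 genes of the list. In the other 6 pairs it differed by at most 1.16. The within-pair difference ran from 0.07 to 3.49, with a median of 0.58. It was the deeper cell that scored higher in 7 of the 9 pairs, and in the 3 wide pairs the deeper cell held 85.3%, 82.1% and 94.2% of the counts. After thinning each cell to 30000 counts the 3 differences were 3.92, 3.62 and 2.99, so they were about as large at equal total counts. The number of genes a cell showed stayed unequal there, at 2298 and 6302 in the shallower and deeper cell of clone 13, 2136 and 5418 in clone 20 and 1654 and 6665 in clone 53. With all counts it was 4343 and 14975, 4876 and 11990, and 2281 and 14999. Thinning also kept the single ID without a symbol, which took unequal parts of the counts. Its share of all exon counts was 9.77% and 6.46% in the shallower and deeper cell of clone 13. It was 23.8% and 5.40% in clone 20 and 52.3% and 24.9% in clone 53. The part of detected genes and of this ID in the score differences was not tested.

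**Figure D3:**
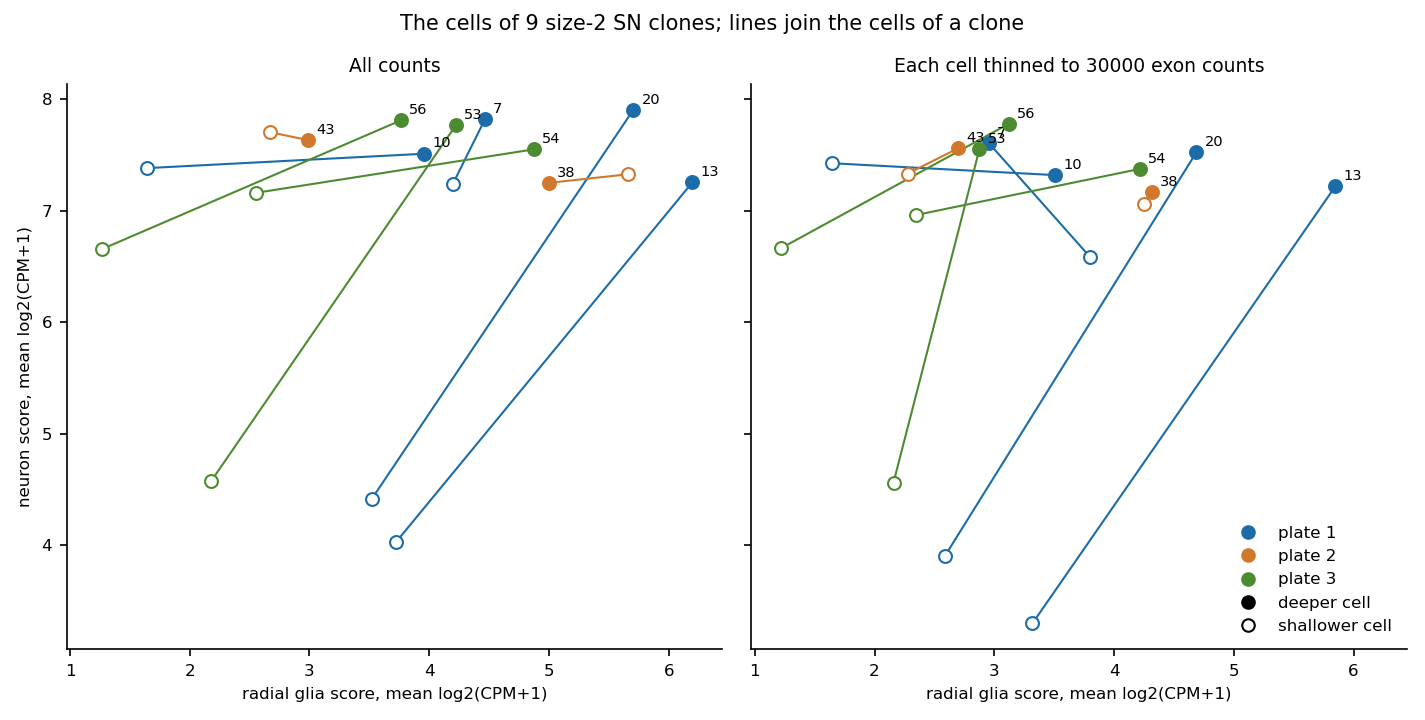
Neuron score against radial glia score, both the mean log2(CPM+1) over their list, for the 18 cells of 9 size-2 clones, from all counts (left) and with each cell thinned to 30000 exon counts (right); lines join the cells of a clone and open circles mark the shallower cell. The lines of clones 13, 20 and 53 are long and run up to the right, while clones 38 and 43 are short.

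In those 3 pairs most genes of any kind were higher in the deeper cell, and neuron genes were as well. In clone 13 the deeper cell was higher in 25 of 26 neuron genes (96.2%), beside 84.1% of all genes counted in either cell. In clone 20 it was higher in 22 (84.6%) beside 78.1% of all genes. In clone 53 it was higher in 19 (73.1%), under the 91.1% of all genes. At 30000 counts the shares were 84.6% beside 74.5% in clone 13, 76.9% beside 73.9% in clone 20 and 69.2% beside 82.7% in clone 53. Clone 13 had Stmn2 at nearly the same level in both cells (2323 and 2462 CPM), but Dcx, the microtubule protein of migrating neurons, stood at 2.61 and 250.5 CPM. In that clone Neurod6 stood at 0 and 116.1 CPM and the deep-layer factor Bcl11b at 0 and 70.2 CPM. Clone 20 had Stmn2 at 657 and 3649 CPM, the axonal microtubule protein Mapt at 42.3 and 1312 CPM, Neurod6 at 0 and 242.4 CPM and Neurod2 at 1.32 and 206.3 CPM. Its Bcl11b ran the other way, at 361 and 55.6 CPM. Clone 53 was mixed: Stmn2 stood at 250 and 3315 CPM and Tbr1, a deep-layer T-box factor, at 0 and 136.2 CPM, yet Neurod6 was 2676 CPM in the shallower cell and 283.2 CPM in the deeper one. Its shallower cell had 164024 exon counts, 52.3% of them from the single ID without a symbol.

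A lower neuron score did not come with a higher radial glia score. In 8 of 9 pairs the cell with the higher neuron score also had the higher radial glia score, and in 7 of 9 after thinning. The shallower cell of clone 13 had Fabp7 at 3394 CPM and Vim at 1718 CPM against 1605 and 1274 CPM in the deeper cell, and Top2a at 476 and 260.8 CPM. There Sox2, the progenitor factor, stood at 0 in the shallower and 107.4 CPM in the deeper cell. The shallower cell of clone 20 had Vim at 1322 CPM against 418 CPM, but Fabp7 at 2710 against 5747 CPM and Slc1a3, the glial glutamate transporter, at 37.7 against 418 CPM. So the radial glia genes of a pair were not all higher in the same cell.

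Radial glia scores differed by 0.27 to 2.50 within pairs, with a median of 2.18, larger than the median for neuron genes. The difference was over 2 in clones 10, 13, 20, 53, 54 and 56 and under 0.67 in clones 7, 38 and 43. The deeper cell was higher in 8 of 9 pairs, both with all counts and after thinning, where the range was 0.07 to 2.53. Of all genes counted in either cell, 48.3% (clone 38) to 91.1% (clone 53) were higher in the deeper one, and 45.4% to 82.7% after thinning. Detected genes stayed unequal after thinning, at 3295 and 5113 in clone 54 and 1775 and 5380 in clone 56. In clone 38 they were 5823 and 5521. Their part in the radial glia differences was not tested. Clone 10 was the plainest case of alike neuron scores and unlike radial glia scores. Its cells had neuron scores of 7.38 and 7.51 and radial glia scores of 1.64 and 3.96. Sox2 stood at 0 and 195.6 CPM there, the filament gene Nes at 0 and 231.8 CPM and the endothelin receptor Ednrb at 0 and 501 CPM, while Stmn2 stood at 5273 and 2612 CPM. Clone 56, with only 33984 counts in its shallower cell, had Fabp7 at 0 and 351 CPM and Vim at 0 and 140.7 CPM. With its partner thinned to 30000 counts as well, Fabp7 was still counted in the deeper cell of that pair, as it was in the deeper cell of all 9, and so was Vim.

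**Figure D4:**
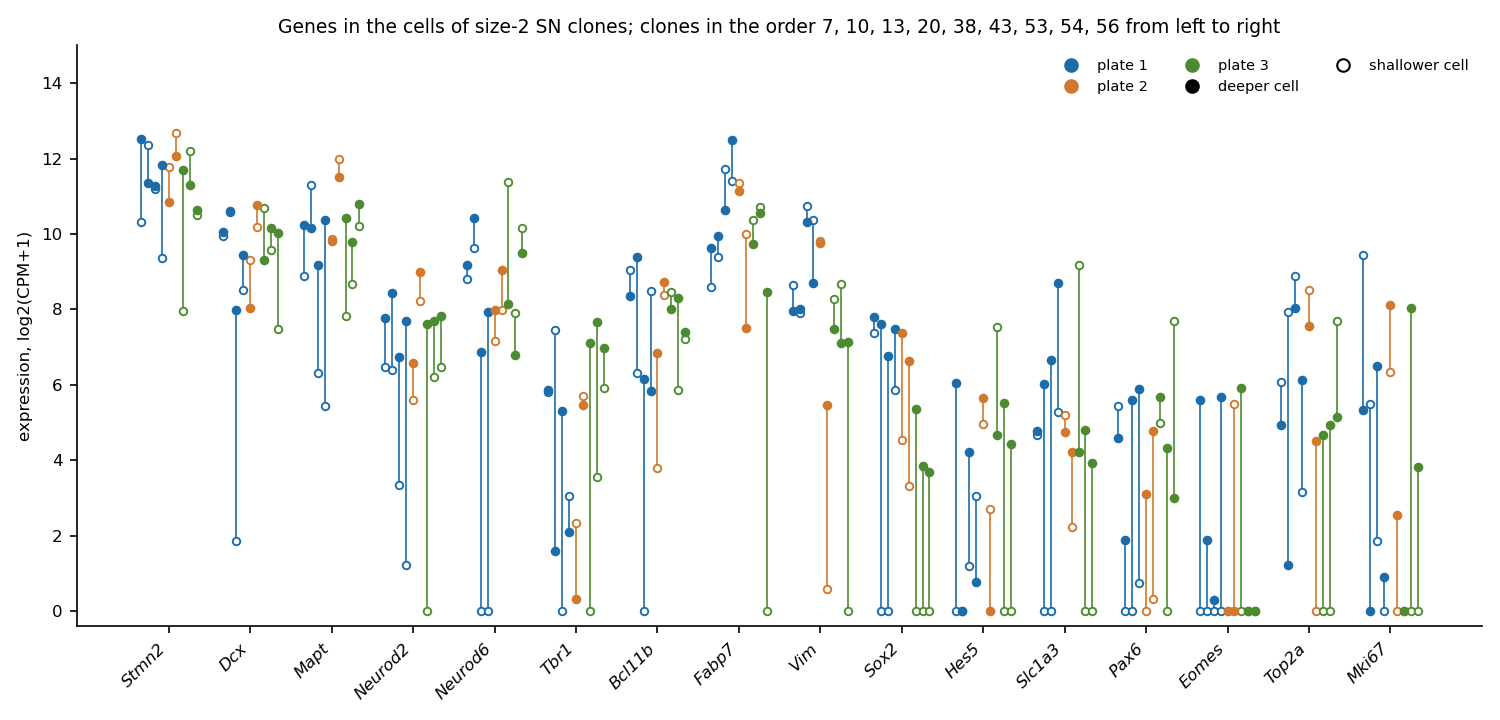
Expression, as log2(CPM+1), of 16 genes in the deeper (filled) and shallower (open) cell of each of 9 size-2 clones, one line per clone. Stmn2, Fabp7 and Vim are high in nearly all cells, Neurod2 and Sox2 are higher in the deeper cell of every pair, and progenitor factors such as Pax6, Hes5 and Eomes are often at 0 in 1 cell.

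Genes differed in whether they followed the deeper cell. Of all genes counted in either cell of a pair, 48.3% to 91.1% were higher in the deeper one, and 45.4% to 82.7% after thinning. Neurod2 was higher in the deeper cell in 9 of 9 pairs, and after thinning in 9 of 9 too. Sox2 was higher in the deeper cell in 9 of 9, and in 7 after thinning with 0 the other way. Btg2 was counted in the deeper cell alone in 8 of 9 pairs, and in 7 after thinning. By contrast Stmn2 was higher in the deeper cell in 5 of 9, Fabp7 in 4 and Vim in 3. Among neuron genes counted in at least 9 of the 18 cells the widest median differences within pairs were those of Sla, a Src-like adaptor (4.50 on the log2(CPM+1) scale), Rbfox3, the NeuN splicing factor (4.46), Nrn1, a neurite growth factor (3.54), Nefm, the medium neurofilament (2.82), and Elavl4, an RNA-binding protein (2.56). Among radial glia genes of the same kind they were Nes (5.36), Ednrb (4.52), Ttyh1, a membrane protein of progenitors (4.49), Pax6 (4.31) and Slc1a3 (3.94). Each of these radial glia genes was counted in 1 cell alone in at least 4 of 9 pairs. Over whole lists the median was 1.41 for the 26 neuron genes and 2.96 for the 24 radial glia genes.

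The cycle and intermediate progenitor genes of the pairs were sparse. Eomes, the T-box factor of intermediate progenitors, was counted in 6 of 18 cells and never in both cells of a pair, up to 59.3 CPM. Mki67, a marker of cycling cells, was counted in 11 of 18 cells. It was highest in the shallower cell of clone 7, at 700 CPM against 39.6 CPM in its partner. Clone 38 had Mki67 at 80.0 and 276.8 CPM and Top2a at 364 and 188.3 CPM, so both of its cells carried cycle genes. In clone 43 they were nearly absent from both, with Top2a at 0 and 22.0 CPM. The cell cycle score differed within pairs by 0.20 to 2.51.

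Beside unrelated cells, pairs were not uniformly alike. The measure was set beside 40 pairs made of cells from different size-2 clones of the same plate, as a description. The median difference in neuron score was 0.58 within clones and 0.59 between clones, and in radial glia score 2.18 and 1.63. In intermediate progenitor score it was 1.86 and 1.21, and in cell cycle score 1.86 and 1.85. The cells of a pair were also more unequal in log10 exon total (0.76 and 0.49) and in detected genes (5748 and 3530.5). The part of depth and detected genes in these medians was not tested. For neuron minus radial glia score it was 1.15 and 2.18. After thinning to 30000 counts the medians for that measure were 1.46 and 2.03, and those for neuron score 1.02 and 0.67. Those for radial glia score were 1.86 and 1.19, for intermediate progenitor score 1.66 and 0.90, and for cell cycle score 0.88 and 1.66. Detected genes then differed by 1960 and 1634. In each case the cells between clones are the same 18 cells.

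Pairs were also compared by colour, in groups too small for any single measure to pass after adjustment. The 4 pairs of 1 green and 1 red cell differed in neuron score by 2.10 ± 1.45 (SD), and the 5 pairs of a single colour by 0.780 ± 1.38, with clones 20 and 53 among the former and 13 among the latter. The difference was 1.32 (exact permutation p = 0.183, adjusted over 7 measures p = 0.537, where the smallest possible p is 0.00794). Radial glia scores differed by 1.75 ± 1.01 and 1.62 ± 1.04 (exact permutation p = 0.952). Depth differed by 1.22 ± 0.749 and 0.512 ± 0.425 on the log10 scale (exact permutation p = 0.151), and none of the 7 measures passed.

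The last comparison asks whether the cells of a 2-cell clone are less alike than those of larger clones. For each clone, the absolute difference was averaged over its cell pairs, and clones were compared by the same exact permutation test within plates, adjusted over 7 measures. The neuron score differed within clones by 1.37 ± 1.49 (SD, n = 9) in size 2 and 1.24 ± 0.649 (SD, n = 19) in larger clones. That plate-adjusted difference of 0.12 did not pass (exact permutation p = 0.773, adjusted p = 0.902), and it turned to -0.09, -0.12 and -0.17 without clones 13, 20 and 53. The radial glia score differed within clones by 1.68 ± 0.960 and 1.48 ± 0.630 (exact permutation p = 0.554, adjusted p = 0.902). The intermediate progenitor score did so by 1.59 ± 0.664 and 1.25 ± 0.484 (exact permutation p = 0.143, adjusted p = 0.502). On plate 2 the 2 size-2 clones were more alike than the larger ones in each of these scores, by -1.5 for neurons, -1.25 for radial glia and -0.62 for intermediate progenitors. On plates 1 and 3 they were less alike.

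Over the 2000 most variable genes the cells of size-2 clones were more alike. There 1 minus the Pearson correlation of log2(CPM+1) averaged 0.777 ± 0.0877 (SD, n = 9) against 0.854 ± 0.0482 (SD, n = 19), a difference of -0.08 (exact permutation p = 0.00657, adjusted p = 0.0460), and was -0.02, -0.23 and -0.04 on plates 1, 2 and 3. It ranged from 0.598 in clone 43 to 0.879 in clone 10, and from 0.746 to 0.918 in larger clones. The call was lost without clone 43 (-0.05, adjusted p = 0.107) and without 19 other clones. Detected genes were also higher in size 2 (8739 and 5549, above), and their part in this difference was not tested. At 30000 counts in each cell it was 0.848 ± 0.0474 and 0.882 ± 0.0371, a difference of -0.03 (exact permutation p = 0.0537, adjusted p = 0.215).

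**Figure D5:**
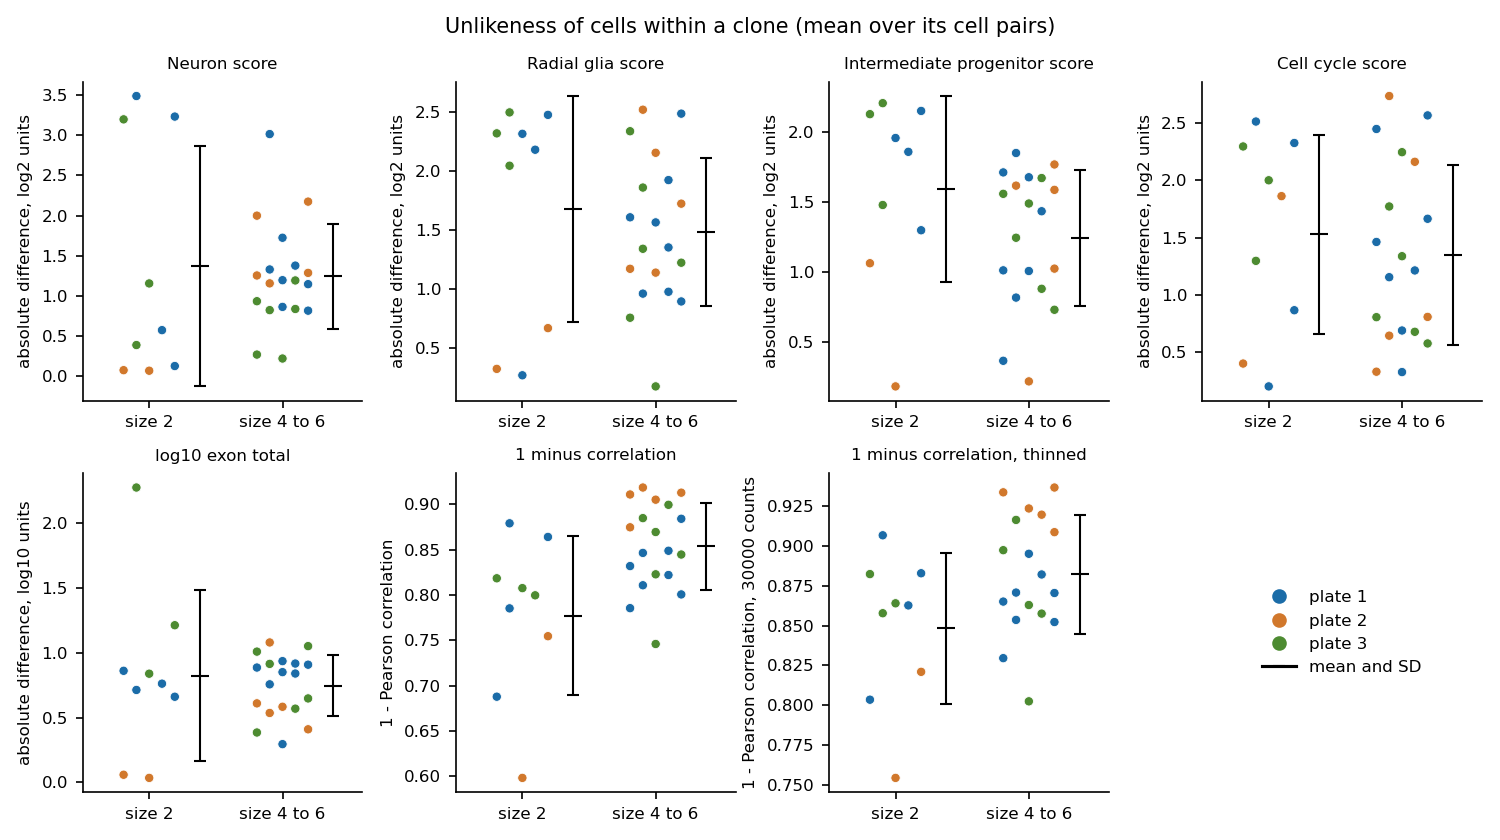
Unlikeness of the cells of a clone, as the mean absolute difference over its cell pairs, in size-2 clones (n = 9, where it is the difference of the pair) and clones of size 4 to 6 (n = 19; 18 in the thinned panel), coloured by plate, with group mean and SD in black. Neuron scores of size-2 clones split into 3 pairs above 3 and 6 at or under 1.16, and 1 minus correlation lies lower in size 2, with overlap.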

How the data were processed

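Smart-seq3 libraries of 287 single cells were deposited as 2 tables of raw counts per gene and cell, exon counts and intron counts, over 55359 Ensembl gene IDs. Per the submitters' processing notes STAR 2.7.9a, R 4.4.0 and GRCm39 were used. How reads were assigned to genes, with which annotation, and whether molecular identifiers were collapsed is not given in the sources used here. Symbols were matched for 52083 IDs, which hold 83.4% of exon counts. No coordinates are given, since the annotation at hand is of another build.

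From these deposited counts, clone sums were tested with the edgeR 4.0.16 quasi-likelihood F test (TMM scaling, filterByExpr, plate as term), with Benjamini-Hochberg adjustment over all genes and a threshold of 0.05. Standard errors are the size of the log2 fold change divided by the square root of F. The CPM of a gene in a clone is scaled by TMM, and that of a cell or of a summed list by the exon total. Cell scores and unlikeness were compared over clones by exact permutation within plates (Python 3.11.15, numpy 2.4.6). The correlation between cells used the 2000 most variable genes of the kept SN cells. The tests were tried on simulated data before use. The highest correlation between 2 compared cells was 0.819, so all cells were kept as separate.

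Named genes were, in each direction, up to 10 called genes ranked by p and counted in at least 10 cells (the leading 3 by p where fewer than 3 were called), the 3 of smallest p of each of 18 pathway lists, 16 preset genes in the pairs with the 5 neuron and 5 radial glia genes that differed most within pairs, and Emx1. Nfia, Nfib, Nfix, Reln, Calb2, Cdh8 and Hes1 are list members named after their values were seen. So are the size comparisons of Stmn2, Neurod6, Fabp7, Vim, Pax6, Nes and Slc1a3. A further gene that this rule takes in is not reported here. Markers of 8 other cell types were counted as lists. The members and lists were chosen with earlier results of these data known. Alternatives were DESeq2 1.42.0, limma-voom 3.58.1, no filter, other scaling, weighting, cell filters and pseudocounts, subsets of clones and plates, and each clone left out. Those using cells of at least 100000 counts in the clone sums, and thinning to 30000 counts, were chosen after seeing the data.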

Additional observations from a re-analysis of the deposited data

Results flagged for a closer look

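In 10 of 89 groups of 4 to 9 clones examined, 1 clone stood apart from its neighbours by a large part of the group's range. The cut-off would flag about 1 in 20 groups of independent, normally spread values. These groups share clones and many of their genes were picked by p, so 10 of 89 cannot be weighed against that rate. Clone 38 had a mean intermediate progenitor score of 4.16, with the other 8 size-2 clones at 1.24 to 2.66. Clone 13 had a within-pair neuron score difference of 3.23, far above the other single-coloured pairs, which lay at 0.07 to 0.39. Clone 13 also held the lowest Gria2, at 95.8 CPM, with the others at 340 to 893 CPM. Clone 43 was low in 3 genes, with Neurod1 at 1.36 CPM (others 28.0 to 204.8), Btg2 at 0.151 CPM (others 36.1 to 156.6) and Nefl at 0 CPM (others 15.7 to 271.8). Clone 10 was low in the axon guidance co-receptor Plxna4, at 1.07 CPM (others 33.8 to 393), and in Tle4, at 3.75 CPM (others 32.1 to 240). For Tmem18 and Ccdc18 a single clone, 7 and 13, held 0.206 and 0.892 CPM while the other 8 stood at 0.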

How the results depend on the processing

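The edgeR test of exon sums called 0 genes, DESeq2 11, limma-voom 3 (Chst1, Dmpk and mt-Rnr2), the test without the low count filter 1018, and the test without plate 1 called 1 (4930578M01Rik). Of those 1018 genes 985 were higher in size 2, out of 31771 tested. Leaving out each clone in turn gave 0 to 0 calls. On introns 2 genes (Pecam1 and Atrip) were called with 2 cells per clone. These genes are named after their values were seen. The median over all genes was 0.05, and 0.21 with limma-voom, 0.26 with 2 cells per clone, so list medians there read against those. Of the 57 named genes' values, 1561 of 1571 with 1 clone left out and 905 of 939 under the other alternatives kept sign and call.

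The fitted difference changed sign with limma-voom Rbl2 -0.044, Emx1 1.16, Hk2 -0.30, Hes5 0.38, with equal cell weight Emx1 0.46, Nefl -0.44, Notch3 -0.21, with 2 cells per clone Emx1 1.85, Apoe 0.14, Tmem178 0.0482. With at least 2000 genes per cell the values were Tmem178 0.41, with size 4 alone Emx1 0.27, without plate 1 Emx1 0.15, Tmem178 3.49. Without plate 3 the values were Hk2 -1.52, Tmem178 2.39, in two-coloured clones Rbl2 -0.0174, Lhx2 0.0926, Igf2bp2 -1.09, Pgk1 -0.95, Hes5 0.89, Mdm2 -0.0527, Dnajb1 -0.14, Pou3f1 -0.15, in cells of at least 100000 counts Tmem178 0.43. With 1 clone left out, ranges that crossed 0 were Emx1 -0.89 to 1.14, Nr4a2 -0.0311 to 0.71, Tmem178 -0.79 to 0.49.

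Clone means changed sign with the log2 of summed CPM radial glia -0.42, cell cycle -0.63, at 30000 counts radial glia -0.00512, on plate 2 radial glia -0.0795. On plate 3 the values were radial glia -0.40, cell cycle -0.23, mitochondrial share 0.84, unnamed ID 2.96, on plate 1 neuron minus radial glia -0.75. Clone mean calls were lost with a pseudocount of 10 intermediate progenitor 0.28, with the log2 of summed CPM intermediate progenitor 0.92, at 100000 counts intermediate progenitor 0.56. With at least 2000 genes per cell the values were intermediate progenitor 0.66, intron share 7.37, with 2 cells per clone intermediate progenitor 0.57, intron share 6.67, thinned detected genes 1325, with size 4 alone intermediate progenitor 0.76. Clone means moved by over 1 SD or came to pass on plate 2 neuron 2.15, neuron minus radial glia 2.23, intermediate progenitor 1.80, unnamed ID -17.4, detected genes 6581, thinned detected genes 3920.

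Unlikeness changed sign with a pseudocount of 10 radial glia -0.0897, cell cycle -0.0257, with the log2 of summed CPM neuron -0.0331, radial glia -0.35, intermediate progenitor -1.40, at 100000 counts radial glia -0.0813. At 30000 counts the values were radial glia -0.11, with at least 2000 genes per cell log10 depth -0.0328, with 2 cells per clone neuron -0.00397, radial glia -0.059. With size 4 alone the values were neuron -0.0172, on plate 2 neuron -1.5, radial glia -1.25, intermediate progenitor -0.62, cell cycle -0.20, log10 depth -0.60, on plate 1 neuron minus radial glia 0.0758, log10 depth -0.0495. On plate 3 the values were neuron minus radial glia 0.34. Unlikeness calls were lost with a pseudocount of 10 correlation distance -0.0828, at 100000 counts correlation distance -0.0609, at 30000 counts correlation distance -0.033. With at least 2000 genes per cell the values were correlation distance -0.0707, with 2 cells per clone correlation distance -0.0705, with size 4 alone correlation distance -0.0801. Unlikeness moved by over 1 SD on plate 2 correlation distance -0.23. Differences by colour changed sign with a pseudocount of 10 neuron minus radial glia 0.0325, with the log2 of summed CPM radial glia -0.12, intermediate progenitor -1.64, cell cycle 1.68, at 100000 counts neuron minus radial glia 0.0597. At 30000 counts the values were neuron minus radial glia 0.60, intermediate progenitor -0.66, with at least 2000 genes per cell radial glia -0.12.

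With each clone left out, the ranges were, for clone means, neuron 0.73 to 1.09, intermediate progenitor 0.40 to 0.81, intron share 5.95 to 8.56, log10 depth 0.26 to 0.42, and for unlikeness neuron -0.17 to 0.31, neuron minus radial glia -0.15 to 0.0911, log10 depth -0.11 to 0.13, correlation distance -0.0901 to -0.0477. The cause of these changes was not tested. No paired analysis was possible because the labels' numbers count cells within a clone and pair no clones between groups. The 9 size-2 clones, the shallowest cell of which had 33984 exon counts, limit each comparison, and 19.7% of exon values above 0 rest on 3 counts or fewer.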

Other observations

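SN clones labelled size 3, which entered no comparison, comprised 38 kept cells in 14 clones, of which 11 held both colours. Their cells showed a mean of 6372 detected genes (2746 to 12690.5 over clones, median 5744), and their neuron score averaged 5.97 (3.71 to 8.04). Their radial glia score averaged 3.85 (1.601 to 5.19) and their intermediate progenitor score 1.71 (0.783 to 3.68). Within a size-3 clone the neuron score differed between cells by a median of 1.17 (0.350 to 3.35). The deepest cell of a size-3 clone held a median of 54.5% of the clone's counts (35.5% to 85.6%).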
